A study of Arabidopsis thaliana with 34 samples.

Results

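Trimethylation of histone H3 at lysine 27 (H3K27me3) was mapped by chromatin immunoprecipitation and sequencing in whole seedlings of Arabidopsis thaliana of 2 genotypes, the wild type Col-0 and the mutant vrn2-5. These libraries and their inputs are 12 of the 34 samples of the study: 3 H3K27me3 libraries and 3 inputs for each genotype. All regions on chromosomes 1 to 5 of the 3 deposited region tables were used, 4768 for replicate 1, 6518 for replicate 2 and 6357 for replicate 3, or 17643 in all. Each table sets a vrn2-5 library against the Col-0 library of the same replicate number and gives the reads of both in every region. The inputs have no values in these tables and were not analysed here.

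The headers of the tables call the libraries A and B. A was read as vrn2-5 and B as Col-0, since the comparison is named vrn2 against Col0. If that reading were wrong, every direction below would turn. The labels name no transgene for these samples and state neither age, light nor temperature. The labels repeat for these samples the protocol of the VRN2-YFP experiment with the AB290 antibody, and no source used here names an antibody against H3K27me3. The labels do not say whether replicates were separate plantings, so the spread between these libraries, on which p-values rest, may be technical. The edgeR tests of single regions pooled that spread over all regions, so their p-values and SEs do not measure the spread of any single region. A whole seedling pools many cell types, and a lower level per cell cannot be told apart from fewer cells that carry the mark.

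H3K27me3 is the repressive chromatin mark written by Polycomb repressive complex 2 (PRC2). In plants it covers developmental genes outside the tissue or stage in which they act, such as floral genes in a seedling. VRN2 is one of several related zinc finger subunits of PRC2, with EMF2 and FIS2 as the others, and is known for the stable silencing of the floral repressor FLC after cold. The comparison asks where loss of VRN2 changes the amount of the mark, while EMF2 remains.

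The mutant was first checked in the separate mRNA libraries of whole seedlings from the same study. VRN2 (AT4G16845) was at 116, 163 and 135 normalised reads in the 3 Col-0 libraries and at 50.1, 45.0 and 50.3 in the 3 vrn2-5 libraries. The VRN2 transcript was lower in every mutant library than in any wild-type library. The gene itself lay in no H3K27me3 region of any table, so the ChIP libraries could not be checked this way.

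The label of the mark was checked against gene lists. Of the 37 genes on 4 lists of developmental Polycomb targets (floral organ identity, flowering time, meristem and boundary, seed and imprinted genes) that have coordinates in the gene table, 32 lay in a region found in all 3 tables. None of 13 constitutively expressed genes, such as ACT2, UBQ10 and GAPC1, lay in a region of any table. None of 7 genes for PRC2 subunits and the reader LHP1 did either. A further 9 listed genes, WUS and SHP2 among them, were not analysed here, because the gene table used for coordinates does not list them.

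H3K27me3 formed regions of a few kilobases. The median width was 3400 bp in replicates 1 and 2 and 3600 bp in replicate 3, and the interquartile range ran from 1800 to 5800 bp in replicate 1, from 2200 to 5600 bp in replicate 2 and from 2400 to 5600 bp in replicate 3. Every width was a multiple of 200 bp. The regions of replicate 1 covered 21.7 Mb, and those of replicates 2 and 3 covered 29.1 Mb each. Replicate 1 thus had the fewest regions and the shortest covered length, and it also held the widest region, of 70600 bp.

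Read density, here the reads per kb in every 1000000 reads inside regions, had a median of 36.5 in replicate 1, 28.8 in replicate 2 and 29.4 in replicate 3, as the mean of both libraries of a table. Wide regions were also denser: the Spearman correlation of width and density across regions was 0.478 in replicate 1, 0.168 in replicate 2 and 0.193 in replicate 3. These are descriptions across regions of 1 table, which share their libraries.

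**Figure D1:**
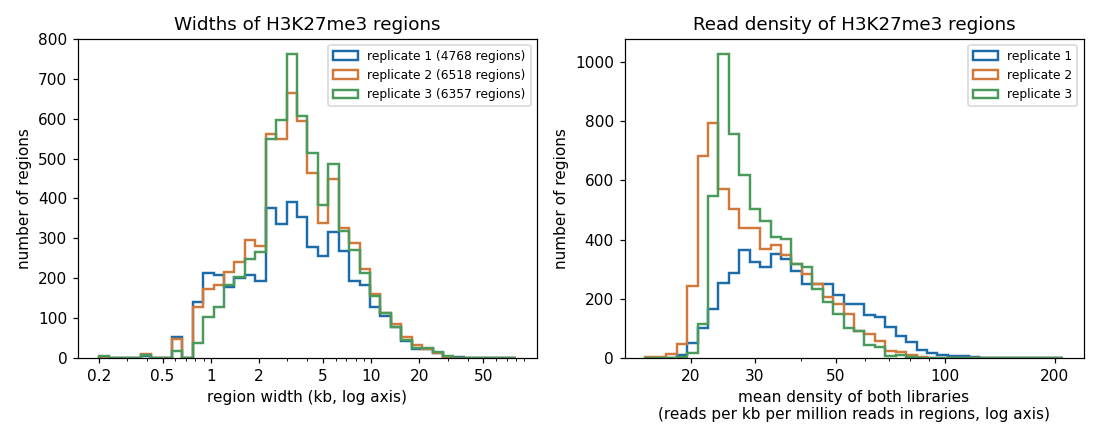
Widths in kb (left) and read densities in reads per kb and 1000000 reads in regions (right) of all regions in the 3 tables, both on log axes, with 1 outline for each replicate. The width distributions lie over each other with medians of 3400 to 3600 bp, while the densities of replicate 1 reach further to the right than those of replicates 2 and 3.

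The same share of each library fell in regions to within 2 percentage points in both genotypes. In replicate 1, 46.6% of 13586442 vrn2-5 reads and 48.4% of 15731131 Col-0 reads lay in regions. In replicate 2 the shares were 47.5% of 12216938 and 47.3% of 10763415 reads, and in replicate 3 they were 42.7% of 12109632 and 43.4% of 10071629. The 95% Wilson intervals of these shares reach at most 0.0306 points to either side and cover counting error only, since reads are not independent molecules. The difference, vrn2-5 minus Col-0, was -1.79 points in replicate 1, 0.191 in replicate 2 and -0.688 in replicate 3, so the sign was not the same in all pairs (exact sign-flip permutation test on the log2 ratio of shares, two-sided, p = 0.50, with 0.25 the smallest p that 3 pairs allow). Every region held at least 99 reads of both libraries together. Library totals here are those implied by the authors' normalised columns.

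Region by region, the mark differed little between the genotypes. With each library scaled to its reads inside regions, the median log2 ratio of vrn2-5 to Col-0 was -0.11 in replicate 1, -0.02 in replicate 2 and -0.01 in replicate 3, a mean of -0.05 ± 0.0544 (SD, n = 3 pairs; exact sign-flip permutation test, two-sided, p = 0.25, the smallest possible). The median was below 0 in all 3 pairs, and the sign of this mean turned with the scaling: it was 0.01 with the trimmed mean of M values (TMM) and 0.01 when regions were weighted by width. Since scaling to the column total fixes that total, only a shift of reads between regions can be seen, and a uniform gain or loss of the mark cannot.

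The spread of single regions around that median was narrow as well. The SD of the log2 ratio across regions was 0.249, 0.228 and 0.176 in replicates 1, 2 and 3, and 409, 258 and 74 regions lay beyond 0.5 in either direction. Counting error alone accounts for 12.3%, 19.2% and 31.6% of that variance. Within a table, the log densities of the 2 genotypes correlated across regions with Pearson's r of 0.926, 0.884 and 0.898.

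The positions of the mark recurred between replicates. Of the regions of replicate 1, 84.2% belonged to a merged region found in all 3 tables, against 65.4% of replicate 2 and 66.2% of replicate 3. By length, these shares were 94.2%, 71.5% and 73.8%. Where an overlap of 50% of the length of both regions was asked for in place of 1 bp, the shares of regions fell to 67.6%, 49.4% and 50.7%. Replicates 2 and 3 shared more with each other than with replicate 1: 84.6% of the regions of replicate 2 overlapped one of replicate 3, and 67.6% overlapped one of replicate 1.

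Regions found in 1 table only were sparse and tended to one side. There were 454 of them in replicate 1, 756 in replicate 2 and 746 in replicate 3, with median densities of 27.9, 21.9 and 24.2. Their median log2 ratio was -0.32 in replicate 1, 0.16 in replicate 2 and 0.11 in replicate 3. Col-0 was the deeper library in replicate 1, and vrn2-5 was the deeper one in replicates 2 and 3, so the median of these regions leaned to whichever genotype was sequenced more deeply. The part of depth in this was not tested. Except where other regions are named, the tests between genotypes below therefore used the merged regions found in all 3 tables.

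Merging overlapping regions gave 7254 regions on the 5 chromosomes, of which 3786 were found in all 3 tables. These covered 24.7 Mb with a median width of 5200 bp, and 3136 of them (82.8%) came from a single region in each table. They overlapped 4333 of the 21713 nuclear genes of the gene table (19.96%): 4191 of 20758 protein-coding genes (20.2%), 93 of 599 long noncoding RNA genes (15.5%) and 23 of 70 microRNA genes (32.9%). That table is one of rosette expression and holds only 37 of the 46 genes on the 4 developmental lists. The shares among all nuclear genes may therefore differ. Along the chromosomes, a median of 215 kb per 1-Mb window was covered. The 26 windows with at most 120 genes had a median of 63.9 kb covered, and the other windows 233 kb.

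The change in the mark from region to region was in part shared between replicate pairs. Across the 3786 merged regions the log2 ratios of 2 pairs correlated with Pearson's r of 0.586 (replicates 1 and 2), 0.563 (1 and 3) and 0.589 (2 and 3), with Spearman's rho of 0.601, 0.590 and 0.559. The pairs share no library but share the regions. The log2 ratio was below 0 in all 3 pairs in 1628 regions (43.0%) and above 0 in all 3 in 627 (16.6%), and it had mixed signs in the remaining 40.4%.

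**Figure D2:**
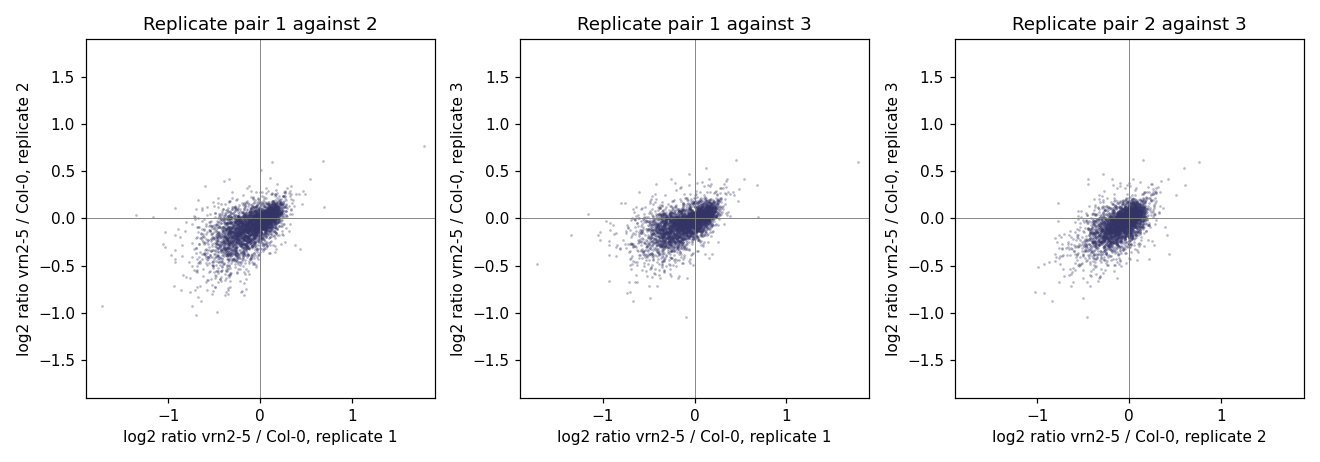
Log2 ratio of vrn2-5 to Col-0 of each of the 3786 merged regions in 1 replicate pair against another, with 1 point per region. The clouds lie along the diagonal with Pearson's r of 0.563 to 0.589, and they reach further below 0 than above it.

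The paired test placed 1277 merged regions past the threshold, most of them lower in vrn2-5. With edgeR's quasi-likelihood test, with the replicate number as a block and Benjamini-Hochberg adjustment over all 3786 regions at 0.05, 962 were lower (25.4%) and 315 higher (8.32%). The split rests on the scaling. With TMM scaling the same test called 536 lower and 665 higher, with median-of-ratios scaling 478 and 741, and with library totals 1118 and 214. These scalings moved the median of all regions from -0.06 to 0.00, 0.00 and -0.09. Without the replicate block edgeR called none in either direction, with 29 regions at an unadjusted p under 0.05, and without replicate 1, 2 or 3 it called 387 to 646 lower and 142 to 170 higher. Under all 4 scalings 478 regions were lower (12.6%) and 214 higher (5.65%). These are the lower calls of median-of-ratios scaling and the higher calls of library totals. The scalings shift all regions by nearly the same amount, so the 4 are not independent of each other. No region called by column totals was called in the opposite direction in the alternatives that tested the same regions. Under trended scaling (a curve of count on density removed for each library, added after the trend with density was seen), 55 of the 1277 turned the sign of their log2 difference, 50 of those called lower and 5 of those called higher, none of them called there.

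The changes were small in both directions. Regions called lower had a median log2 difference of -0.26, a fall of 16.3%, and ranged from -1.04 to -0.08. Regions called higher had a median of 0.13, a rise of 9.30% and ranged from 0.08 to 1.04. A log2 difference beyond 0.5 was fitted for 52 regions, 50 lower and 2 higher. No region lost all its reads: at the largest fall, of -1.04, the scaled reads decreased by 51.2%. Reads in a region include background, which was not measured, so the fall of the mark itself is not known.

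Lower and higher regions differed in kind. Those called lower were narrow and sparse, with a median width of 3800 bp and a median density of 32.1. Those called higher were wide and dense, with a median width of 9200 bp and a density of 54.6, and the 2509 not called lay between, at 5400 bp and 37.4. Among regions called under all 4 scalings the widths were 3200 bp for lower and 9800 bp for higher and the densities 31.6 and 55.9. Of the lower regions 32.7% overlapped no gene of the gene table, against 13.0% of the higher ones and 26.7% of those not called. The gene table does not list every gene, and the part of region width in these shares was not tested.

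**Figure D3:**
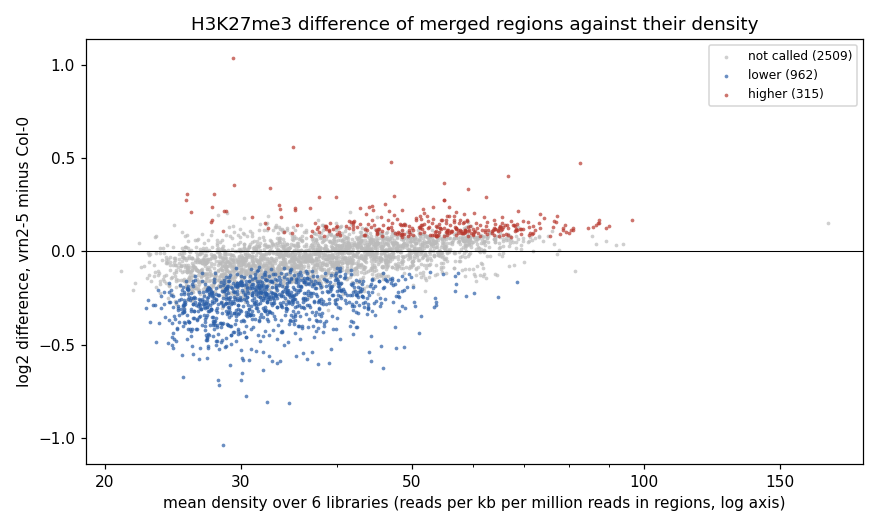
Fitted log2 difference of H3K27me3, vrn2-5 minus Col-0, against the mean density over 6 libraries (log axis) for the 3786 merged regions, coloured by the call. The 962 regions called lower (blue) sit mostly to the left, with a median density of 32.1, and the 315 called higher (red) mostly to the right, with a median of 54.6.

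The same order appeared in each replicate pair when regions were split into 5 equal groups (quintiles). From the narrowest to the widest quintile, the median log2 ratio rose from -0.25 to 0.04 in replicate 1, from -0.23 to 0.01 in replicate 2 and from -0.15 to 0.01 in replicate 3. In the narrowest quintile 44.1% of regions were called lower and 0.923% higher, and in the widest quintile 10.4% and 20.7%.

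From the sparsest to the densest quintile, the median log2 ratio rose from -0.30 to 0.11 in replicate 1, from -0.12 to 0.02 in replicate 2 and from -0.09 to 0.03 in replicate 3. In the densest quintile 28.9% of regions were called higher and 4.49% lower, against 1.32% and 38.8% in the sparsest. Regions in both the widest and the densest quintile exceeded those in both the narrowest and the sparsest, in median log2 ratio, by 0.51, 0.31 and 0.26 in the 3 pairs. The mean of these was 0.36 ± 0.133 on the log2 scale (SD, n = 3 pairs; exact sign-flip permutation test, two-sided, p = 0.25, the smallest possible).

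**Figure D4:**
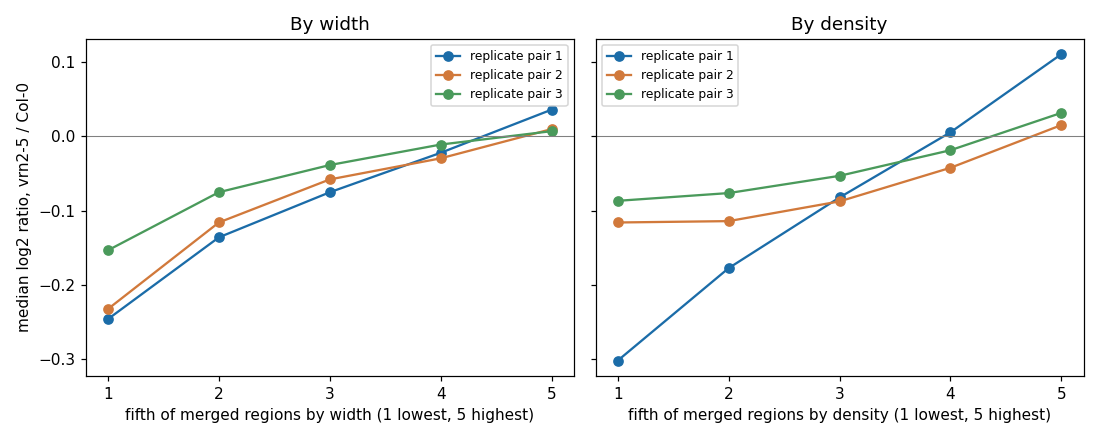
Median log2 ratio of vrn2-5 to Col-0 in each quintile of the merged regions by width (left) and by density (right), with 1 line per replicate pair. All lines rise from left to right, from -0.30 to 0.11 by density in replicate 1 and from -0.09 to 0.03 in replicate 3.

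The trend with density was steepest in replicate 1 and depended on which regions entered. Over all regions of a table, the slope of the log2 ratio on log2 density was 0.294 in replicate 1, -0.0806 in replicate 2 and -0.0234 in replicate 3. The mean slope of 0.0633 turned to -0.0520 without replicate 1 (exact sign-flip permutation test, two-sided, p = 1.0 with all 3 pairs). Over merged regions, with density taken from the other 2 tables, the slopes were 0.369, 0.125 and 0.106, all above 0. The slope on log2 width over merged regions was more even, at 0.0915, 0.0891 and 0.0616 per doubling of width (mean 0.0807 ± 0.0167, SD, n = 3 pairs; exact sign-flip permutation test, two-sided, p = 0.25, the smallest possible). Background reads between libraries were not measured here, and their part in these slopes was not tested.

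Among single loci, 1 rise stood apart in size. A region of 8400 bp at chr3:11447201-11455600 (TAIR10) over AT3G29630 and AT3G29633 had densities of 13.3, 20.7 and 24.2 in the Col-0 libraries and 46.0, 35.1 and 36.5 in the vrn2-5 libraries. The groups did not overlap, and the region was higher by 1.04 ± 0.0520 on the log2 scale (SE; edgeR, adjusted p = 2.0e-82). It was above 0 in each pair, by 1.79, 0.76 and 0.59. The SE and p use an error pooled over all regions and do not reflect this spread. Without replicate 1 the value was 0.68, and with DESeq2 the adjusted p was 0.034. AT3G29633 was at 0 normalised reads in all 3 Col-0 mRNA libraries and at 68.2, 84.9 and 33.5 in the vrn2-5 libraries. The other gene of the region, AT3G29630, was at 0, 14.2 and 10.4 in Col-0 and at 3.46, 0 and 0 in vrn2-5, and its values overlapped between the genotypes.

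The largest fall was at chr5:20742201-20744400, a region of 2200 bp that overlapped no gene of the gene table. In the RefSeq order of assembly TAIR10.1, AT5G50995 and AT5G51000 lie between its neighbours. Its density was 40.6, 39.2 and 33.8 in the Col-0 libraries and 12.3, 20.6 and 24.2 in vrn2-5, so the groups did not overlap. The log2 difference was -1.04 ± 0.109 (SE; edgeR, adjusted p = 5.3e-18), and the 3 pairs gave -1.72, -0.93 and -0.48. Here too the SE and p do not reflect the spread of the pairs. The fall was largest in replicate 1. Without replicate 1 the value was -0.69, and with DESeq2 the adjusted p was 0.031.

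The other regions with the smallest p among those lower in all 3 pairs lay between or over genes of varied function. Of the 10, 5 overlapped no gene of the gene table. For these, genes called near are those that RefSeq lists between their neighbours. A region of 3800 bp at chr4:6142801-6146600, near GH9B14, which encodes a glycosyl hydrolase of the endoglucanase family, had densities of 62.3, 44.4 and 46.8 in Col-0 against 42.1, 33.4 and 36.4 in vrn2-5. The groups did not overlap and the difference was -0.45. At chr1:5272201-5275000, near AT1G15320 and AT1G15330, density was 37.9 to 44.4 in Col-0 and 27.5 to 29.4 in vrn2-5 (log2 difference -0.56), and at chr2:128001-131000, near AT2G01240, it was 34.9 to 43.0 and 25.2 to 28.1 (-0.54).

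The rest of these lower regions fell by 0.29 to 0.69 on the log2 scale. They included one over UMAMIT23, of a family of amino acid transporters, at -0.29, one over FOP1, named for folded petals, at -0.33, and one over AT4G12290 at -0.33. A region over AT4G30975, which in the RefSeq order lies beside MIR156b, a precursor of the microRNA that holds plants in the juvenile phase, was at -0.39. A region near AT1G55928 was at -0.47. The region over NRPE3B, a subunit of a plant-specific RNA polymerase, was at -0.69, and since its neighbour NRPB3 is a close paralog, reads of the pair may be hard to assign.

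Of the other 9 regions with the smallest p among those higher in all 3 pairs, 2 lay over genes of known developmental regulators, YAB5 and PTL. YAB5, a YABBY factor of leaf polarity, had densities of 64.2, 43.0 and 39.2 in Col-0 against 77.7, 49.9 and 45.6 in vrn2-5. The ranges of the genotypes overlapped, while within each pair vrn2-5 was higher, by 0.27, 0.21 and 0.22 (fitted 0.24). PTL, a trihelix factor that limits growth between sepals, shared a region with the aldolase gene FBA4 that was higher by 0.20. A region of 23000 bp over AT1G28310, which in the RefSeq order is close to LEC2, a regulator of embryo maturation, was higher by 0.20 as well.

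Another such region lay beside EMF1, which encodes a plant-specific partner of PRC2. The 6800 bp at chr5:3688001-3694800 between ASP3 and EMF1 had densities of 70.9, 40.98 and 44.9 in Col-0 against 95.1, 49.1 and 54.3 in vrn2-5, a difference of 0.33 ± 0.0400 (SE; edgeR, adjusted p = 9.4e-14). Every pair was higher, by 0.42, 0.26 and 0.27, although the ranges of the genotypes overlapped. The adjoining region over EMF1 itself, at chr5:3695801-3699200, was the second densest of all and was higher by 0.17, but the call was lost without replicate 1, with DESeq2 and with trended scaling.

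The remaining 5 of these higher regions rose by 0.23 to 0.56. They were at chr3:16712001-16715000 with no gene of the gene table (0.56), at chr3:13589001-13592200 in a stretch with no gene of the table (0.48), over AT5G56240 (0.40), over AT1G64490 (0.37) and at chr1:11722401-11735200 beside the nitrate transporter gene NRT1.5 (0.23). All 20 named regions, 10 in each direction, stayed past 0.05 in the same direction under the 8 alternatives of scaling, tool and left-out replicate. They did not in the fit without the replicate block. These regions were chosen for the smallest p and the same sign in every pair, and the alternatives refit the same counts. The shared sign of their pairs, given above, is a condition of that choice. Their survival under the alternatives is therefore not separate evidence.

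Of the 5 widest and the 5 densest merged regions 7 were not called and 3 were higher, and of all merged regions 66.3% were not called. The widest, at chr4:8744201-8814800, spanned 70600 bp over CSLB06, several cytochrome P450 genes of the CYP705A and CYP702A families, the acyltransferase gene BIA1 and PUX5, a stretch known for clustered triterpene genes. It had densities of 52.5, 48.3 and 44.5 in Col-0 against 57.5, 49.4 and 45.9 in vrn2-5, with a log2 difference of 0.07 (edgeR, adjusted p = 0.064). The next 3, of 43400, 42800 and 39800 bp, were at 0.07, 0.03 and 0.01 and were not called. The next, 37200 bp on chromosome 5 beside the marneral synthase gene MRN1 in the RefSeq order, was higher by 0.11 (edgeR, adjusted p = 0.0026), a call lost without replicate 2 or 3.

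The densest region was 800 bp long, at chr2:9601-10400 near the end of chromosome 2, with a mean density of 173, against 96.7 for the second densest. Its Col-0 densities were 111, 193 and 190 in replicates 1, 2 and 3, and how uniquely reads map there was not tested. The region was not called (0.15; edgeR, adjusted p = 0.065). The third and the fourth densest, over NAC105, a factor of xylem differentiation, and AT5G01380, were at 0.04 and 0.03 and were not called either. DRNL, an AP2-type factor of organ initiation, lay under the fifth densest, which was higher by 0.14 (edgeR, adjusted p = 0.00096), a call lost with trended scaling.

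Genes of floral organ identity were marked throughout and mostly carried slightly more H3K27me3 in vrn2-5. All 12 listed genes with coordinates lay in a region of all 3 tables, and 10 of these regions were higher and none lower, against 8.32% and 25.4% of all merged regions. Their median log2 difference was 0.14, against -0.06 over all merged regions, and their median density was 57.7, against 36.4. Of all merged regions in the densest quintile, from 47.9 up, 28.9% were higher, and the part of density in the count of this list was not tested. Their regions often extend over neighbouring genes, so the value is that of the region and not of the gene alone.

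AG, the class C gene of stamens and carpels, had densities of 89.4, 66.8 and 61.7 in Col-0 against 99.6, 73.5 and 66.2 in vrn2-5. Each pair was higher, by 0.16, 0.14 and 0.10, and the fit gave 0.13 ± 0.0329 (SE; edgeR, adjusted p = 0.00073). SEP3, of the class E cofactors needed for all floral organs, was at 70.4, 56.9 and 62.2 in Col-0 against 81.5, 60.9 and 66.6 in vrn2-5 (0.14; edgeR, adjusted p = 0.00092). In both genes the ranges of the genotypes overlapped across replicates, and every pair had the same sign. Both calls were lost with trended scaling, that of AG also without replicate 2 and that of SEP3 without replicate 1.

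The meristem and organ identity gene AP1 was higher by 0.14, the class B genes AP3 and PI by 0.17 and 0.14, SEP1 and SEP2 by 0.12 and 0.16, the fruit genes FUL and SHP1 by 0.12 and 0.16, and CRC, a carpel and nectary gene, by 0.11. CAL, a close relative of AP1, was at 0.03 and LFY, which activates the floral genes, at -0.03, and neither was called. The count of 10 remained at 10 under TMM scaling and was 9 with library totals, SEP1 being lost. It was 5 without replicate 1, 5 with trended scaling and 6 with DESeq2. The call of SEP1 held in 2 of the 8 alternatives and that of CRC in 4, against all 8 for AP1, SEP2 and FUL.

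Flowering-time genes went both ways. FLC, the MADS-box repressor of flowering that VRN2 is known to silence after cold, lay in a region of 12800 bp at chr5:3168601-3181400. Its densities were 75.3, 59.3 and 51.0 in Col-0 against 78.4, 56.1 and 52.0 in vrn2-5. The pairs gave 0.06, -0.08 and 0.03 and the fit 0.01 ± 0.0336 (SE; edgeR, adjusted p = 0.90), so no difference was detectable for FLC at this depth.

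The FLC relatives MAF4 and MAF5 carried less of the mark in vrn2-5. MAF4, at chr5:25992201-25995400, had densities of 42.0, 36.4 and 40.1 in Col-0 against 33.8, 28.2 and 32.9 in vrn2-5, with no overlap between the groups and a difference of -0.32 ± 0.0744 (SE; edgeR, adjusted p = 0.00029). MAF5, at chr5:25997401-26002000, was at 48.5, 40.6 and 36.9 in Col-0 against 40.1, 31.7 and 29.7 in vrn2-5, a difference of -0.31 ± 0.0635 (SE; edgeR, adjusted p = 3.9e-05). Both were lower in every pair, and the ranges of the genotypes overlapped for MAF5. MAF2 to MAF5 are similar neighbours, so some of their reads may be hard to assign. The neighbouring MAF2 and MAF3 and the related FLM lay in no region of any table.

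SOC1 and AGL24, MADS-box promoters of flowering, were higher by 0.16 and 0.14, and TFL1, which keeps the inflorescence indeterminate, by 0.11. SOC1 lost its call with trended scaling, AGL24 with trended scaling, with DESeq2 and without replicate 1 or 3, and TFL1 with library totals, with DESeq2 and without replicate 1 or 2. FT, the mobile flowering signal, was at 0.04 (edgeR, adjusted p = 0.29) with densities of 47.8, 41.3 and 39.1 in Col-0 against 48.4, 42.5 and 41.2 in vrn2-5. AGL19, a flowering promoter also silenced by PRC2, was at 0.05 (edgeR, adjusted p = 0.40) with densities of 61.2, 47.8 and 37.9 and of 62.4, 47.3 and 41.8. For both genes the values of the genotypes lay over each other. SVP lay in a region of 1 table only. The list held 3 higher and 2 lower of 8 regions, against 8.32% and 25.4% of all merged regions, with a median of 0.05 against -0.06. The count of higher regions was 1 without replicate 1 or with DESeq2, and 2 with library totals, with trended scaling and without replicate 2 or 3. The lower calls of MAF4 and MAF5 held in all of these.

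Of 7 regions over meristem and boundary genes, 3 were higher and none lower, against 8.32% and 25.4% of all merged regions, with a median of 0.05. The count of higher regions was 1 with trended scaling or without replicate 2, and 2 with library totals, with DESeq2 and without replicate 1 or 3. STM, the homeobox gene that maintains the shoot meristem, had densities of 104, 78.1 and 73.8 in Col-0 against 116, 85.6 and 78.5 in vrn2-5, and each pair was higher, by 0.16, 0.13 and 0.09 (fitted 0.13; edgeR, adjusted p = 0.00076). Its call was lost with trended scaling (edgeR, adjusted p = 0.91) and without replicate 2. KNAT1, its relative in the stem, was higher by 0.08, and the organ boundary gene CUC2 by 0.13. KNAT1 lost its call with library totals, with DESeq2 and without any 1 replicate, and CUC2 lost it with trended scaling. KNAT2, KNAT6, CUC3 and WOX5 were between -0.08 and 0.05 and were not called, and CUC1 lay in no region.

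None of 5 regions over seed and imprinted genes was called in either direction, and of all merged regions 66.3% were not called. Their median was 0.05, against -0.06 over all merged regions. FUS3, of the embryo maturation network, was at 0.06 with densities of 75.7, 48.1 and 49.7 in Col-0 against 80.2, 48.7 and 52.1 in vrn2-5. MEA, a PRC2 methyltransferase gene that is itself imprinted, was at 0.07 with densities of 59.8, 61.1 and 41.3 and of 65.2, 61.6 and 43.0. Both were above 0 in every pair but missed the threshold (edgeR, adjusted p = 0.25 and 0.15), and both passed it with TMM scaling, as did ABI3. The dormancy gene DOG1 was at -0.10 (edgeR, adjusted p = 0.051) and was called lower with library totals and without replicate 1.

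Growth genes induced by shade and by PIF transcription factors were the subject of the study. Of 22 listed genes, 11 lay in no region of any table, the shade gene ATHB2 and SAUR19 to SAUR24, near-identical neighbours whose reads may be hard to assign, among them, and 9 lay in a region of all 3 tables. Of these 9, 4 were lower and 2 higher, with a median of -0.07, against 25.4% and 8.32% of all merged regions. The median of this list is thus close to that of all merged regions. Of the 20758 protein-coding genes of the gene table, 14647 lay outside every region and 4191 (20.2%) in a region of all 3 tables.

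The lower ones were 2 genes of auxin synthesis, an auxin signalling repressor and a jasmonate-inactivating sulfotransferase. ST2A, the sulfotransferase, had densities of 38.4, 37.4 and 31.6 in Col-0 against 34.2, 27.05 and 27.7 in vrn2-5, a difference of -0.26 ± 0.0509 (SE; edgeR, adjusted p = 2.1e-05). IAA19, the repressor, was at 50.5, 31.8 and 37.4 and at 42.9, 28.6 and 33.2 (-0.19; edgeR, adjusted p = 0.0021). For both genes each pair was lower while the ranges of the genotypes overlapped.

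YUC8 and YUC9, flavin monooxygenases of auxin synthesis, were at -0.29 and -0.28. The pairs of YUC8 gave -0.36, -0.51 and -0.02, so replicate 3 showed almost no difference, and its call held in only 2 of 8 alternatives, library totals and without replicate 3 (edgeR, adjusted p = 0.061 with TMM scaling). YUC9 and IAA19 each lost theirs with trended scaling and without replicate 1. The body of YUC9 overlapped a region in 1 table only, although the merged region is in all 3. Without replicate 1, 1 of the 4 lower calls, ST2A, remained.

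HFR1 and PRE1, atypical bHLH factors that modulate shade growth, were higher by 0.12 and 0.11, and each call held in only 3 of 8 alternatives, being lost with library totals, with DESeq2 and without replicate 1 or 3, among others. PIL1, IAA29 and CKX5 were between -0.07 and -0.03 and were not called. BEE1 lay in regions of 2 tables and XTR7 in a region of 1.

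**Figure D5:**
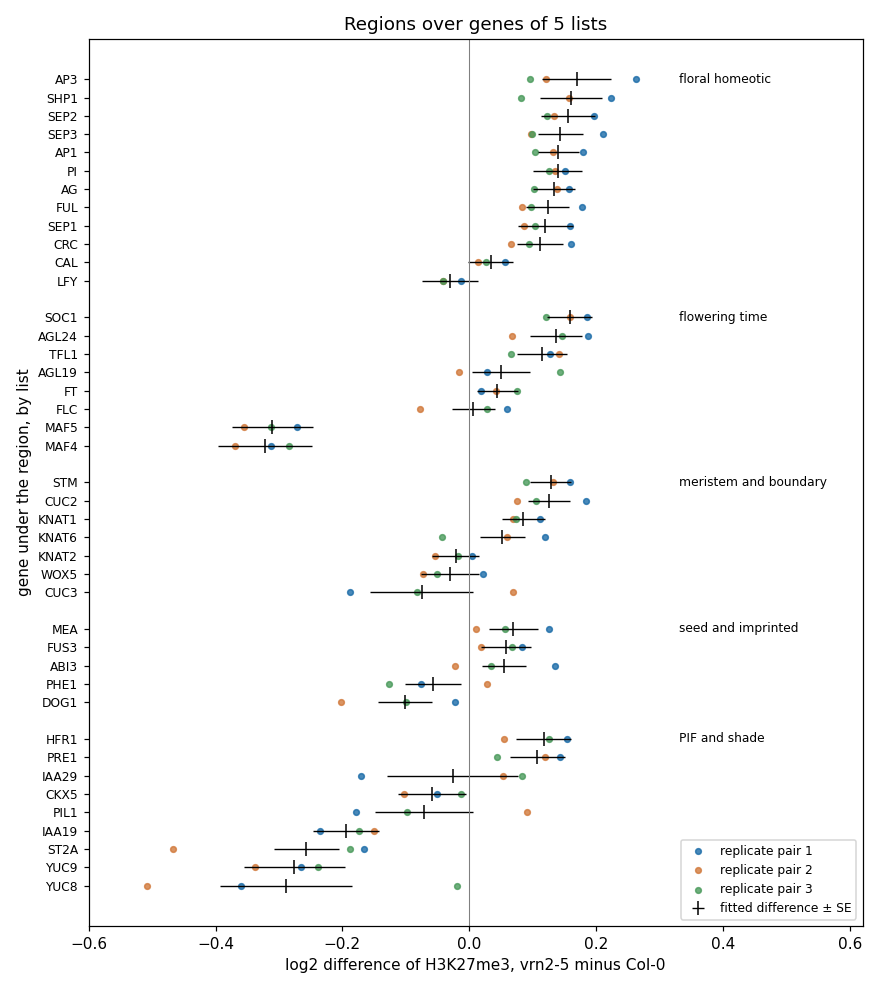
Log2 difference of H3K27me3, vrn2-5 minus Col-0, of the merged regions over listed genes, with 1 coloured point per replicate pair and a black mark with its SE for the fit. The 10 floral identity genes called higher lie to the right of 0 in every pair, while MAF4, MAF5, IAA19, ST2A and YUC9 lie to the left in every pair.

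Occupancy by VRN2-YFP, measured by the study in separate libraries, did not divide lower from higher regions by share. A reproducible VRN2-YFP peak, one found in at least 2 of 3 replicate lists, overlapped 21.7% of regions called lower, 21.3% of those called higher and 20.6% of those not called. Since the lower regions are narrow, the number of peaks per Mb differed more, at 51.5 in lower, 25.01 in higher and 34.5 in regions not called. By density, 6.73% of regions in the sparsest quintile held a peak, against 35.7% in the densest. These are counts over regions with no test.

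Messenger RNA of marked genes was lower than that of other genes in Col-0. Of protein-coding genes in a region of all 3 tables, 69.0% appeared in the seedling expression table, with a median of 26.6 normalised reads per kb of gene in Col-0. Outside every region, 91.7% appeared, with a median of 65.5. Among the lower regions 54.2% of measured genes had a higher mRNA mean in vrn2-5 than in Col-0. The share was 45.4% among the higher regions, 46.0% among regions not called and 50.8% outside every region. It was 46.3% for genes whose region was found in 1 or 2 tables only. The share among the higher regions was thus close to that of marked genes whose region was not called.

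The medians behind these shares were small. The median log2 difference of mRNA, on the scale of log2(value + 5), was 0.03 in lower regions, -0.04 in higher regions, -0.03 in regions not called and 0.00 outside. Taken library by library, the mean level of genes in lower regions minus that of genes in higher regions, relative to the Col-0 mean of each gene, was -0.001, 0.03 and -0.03 in the Col-0 libraries. In the vrn2-5 libraries it was 0.03, 0.16 and 0.09. The lowest vrn2-5 value exceeded the highest Col-0 value by less than the spread among the Col-0 libraries.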

How the data were processed

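The authors deposited, for each replicate pair, a table of regions with raw read counts of both libraries, their RPM (reads scaled to the library), an enrichment ratio and significance values, per the file headers. Per the submitters' processing notes, BWA, SICER and TAIR10 were used, with no versions or settings. The authors' ratio and significance columns were not used, and 14 columns of other samples in the deposited tables were left out. The raw count divided by RPM was constant within each library and gave its library total. Coordinates are on TAIR10, counted from 1.

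Regions on chromosomes 1 to 5 were merged where they overlapped by at least 1 bp, and the counts of each table were summed within a merged region. Ratios per table used a pseudocount of 0.5 reads. Merged regions found in all 3 tables with at least 60 reads over the 6 libraries were tested with edgeR 4.0.16 in R 4.3.3 (quasi-likelihood F test), with the column total as library size and the replicate number as a block, since each table pairs same-numbered libraries over shared boundaries. The deviations of same-numbered libraries from their group means correlated at 0.822, 0.655 and 0.732 over 3786 regions, and those of other pairs at -0.672 to 0.280. Deviations cancel out within a genotype, and same-numbered libraries share region boundaries, so part of this contrast was built in. The fit left 2 residual degrees of freedom, and the common biological coefficient of variation was 0.0345. The prior was infinite, so no region was given an error of its own. Alternatives were TMM, median-of-ratios and library-total scaling, DESeq2 1.42.0, a fit without the block, leaving out each replicate, and other overlaps and thresholds.

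Named regions are the 10 with the smallest p in each direction among called regions of one sign in all 3 tables, the members of the gene lists, and the 5 widest and 5 densest. Members and lists were chosen with earlier results of these data known. Genes, of the kind other than a measurement, took start, end and length from the deposited rosette expression table (21713 nuclear genes), and neighbours and names from RefSeq TAIR10.1. Seedling mRNA is a normalized signal deposited by the authors, used for description only with a pseudocount of 5. Of the VRN2-YFP peak lists, in which the authors give a fold over background per peak, positions alone were used, and 1402 peaks were in at least 2 of 3 lists. Figures used matplotlib 3.10.9 and tables Python 3.11.15 with pandas 2.3.3.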

Additional observations from a re-analysis of the deposited data

How the results depend on the processing

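The counts of regions called higher (315) and lower (962) in vrn2-5 depended on the scaling and the tool. They were 665 and 536 with TMM, 741 and 478 with median-of-ratios, 641 and 374 with trended scaling and 155 and 385 with DESeq2. At an adjusted p under 0.01 they were 181 and 527. With library totals, regions of at least 2 tables or an overlap of 50% they stayed within 1.5 times (214 to 355 and 845 to 1118). The filter on low counts removed no region, so the fit without it was the same fit. Without the replicate block edgeR called 0 in either direction, with 29 regions at an unadjusted p under 0.05, and 0 with a length offset added (351 regions). Leaving out a replicate pair gave 142 to 170 higher and 387 to 646 lower: 142 and 553 without replicate 1, 161 and 387 without replicate 2 and 170 and 646 without replicate 3. In the fits over the same regions none was called in the opposite direction, though 55 turned sign with trended scaling. Signs were not compared at 50% overlap, which redraws the regions.

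The mean of the median log2 ratios, -0.05, turned to 0.01 with TMM (0.0111) and weighted by width (0.00588), and was -0.06 to -0.01 without a replicate. The slope on density, 0.0633, was -0.0520 to 0.135 without a replicate. Shares of regions in all 3 tables fell to 67.6%, 49.4% and 50.7% at 50% overlap. Of the floral identity regions 10 were higher, but 5 with trended scaling, 6 with DESeq2 and 5 to 8 without a replicate. Of the PIF and shade regions 4 were lower, but 1 with trended scaling and 1 to 4 without a replicate. The slope on width kept its sign. Leaving out a pair leaves fewer libraries, and the cause of the other changes was not tested. With 3 pairs no exact test can go below 0.25, and the smallest difference called by edgeR was 0.08 on the log2 scale.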

Other observations

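FLC gave mRNA values that did not overlap between the genotypes, while no difference in its mark was detected. Its mRNA was at 82.5, 56.6 and 102 normalised reads in Col-0 and at 156, 135 and 124 in vrn2-5, while the log2 difference of H3K27me3 over its region was 0.01. FLC was a listed gene, and this pairing of the values was chosen after they were seen. No test of the mRNA was run for it here, and how many of all genes separate in this way was not counted.

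CKX5, a cytokinin oxidase gene, gave values of the same kind. Its mRNA was at 26.2, 42.5 and 50.2 normalised reads in Col-0 and at 75.6, 115 and 70.4 in vrn2-5, with a log2 difference of H3K27me3 of -0.06 that was not called. The mRNA values of NRPE3B did not overlap either, and its region was called lower, at -0.69. They were 3.75, 7.08 and 6.06 normalised reads in Col-0 and 21.6, 9.99 and 10.1 in vrn2-5. The floral gene SHP1, whose region was higher by 0.16, was at 0, 14.2 and 9.81 normalised reads in Col-0 and at 2.66, 0 and 0 in vrn2-5, where the values overlap.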
